A study of Arabidopsis thaliana with 12 samples.

Results

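The 37 genes described here encode the enzymes of carbon fixation and of photorespiration in Arabidopsis leaves. They were picked by function and locus identifier from 34212 loci in the count table, and they comprise 24 Calvin cycle genes (4 Rubisco small subunits, Rubisco activase, the enzymes of the cycle and the 3 CP12 regulators) and 13 photorespiration genes (phosphoglycolate phosphatase, glycolate oxidases, peroxisomal aminotransferases, glycine decarboxylase subunits, serine hydroxymethyltransferase, hydroxypyruvate reductase, glycerate kinase and a chloroplast carrier). RNA-seq had been done on whole rosettes of the natural accessions Cvi-0 (Cvi) and Shahdara (Sha), exposed at 3 weeks of age to ozone (O3) at 350 nL per L or to clean air (CA) for 2 h. The 4 groups were Cvi in O3, Cvi in CA, Sha in O3 and Sha in CA, with 3 libraries in each, and every library was made from a pool of 4 rosettes. The question these comparisons address is how the genes of carbon fixation and of photorespiration respond to O3 in each accession, and whether the pathways and the accessions differ. All 37 genes had counts and all were tested.

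In the Calvin cycle, Rubisco joins CO2 to ribulose bisphosphate, the product is reduced with ATP and NADPH from the light reactions, and the remaining enzymes rebuild the acceptor in the chloroplast stroma. Rubisco also reacts with oxygen, and photorespiration recovers the resulting phosphoglycolate through chloroplasts, peroxisomes and mitochondria, releasing CO2 and ammonia on the way. O3 is an oxidant that leaves take up through open stomata.

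Libraries held between 10794686 and 33571953 estimated counts. Levels below are CPM, counts scaled to a common library size with the trimmed mean of M values (TMM). A gene is called changed when edgeR, testing whether the change exceeded 1.2-fold, gave a false discovery rate (FDR, Benjamini-Hochberg over 28549 genes) of at most 0.05. The second Sha library stood apart in both treatments: of the 24 Calvin cycle genes it was the lowest of the 3 Sha O3 libraries for 23 and the lowest of the 3 Sha CA libraries for 16. Of the 13 photorespiration genes it was the lowest for 9 in Sha O3, but in Sha CA the lowest for 3 and the highest for 7. The first Sha O3 library was the highest of its group for 22 Calvin cycle and 13 photorespiration genes. Calls of members that change without the second Sha library are given beside the results. Checked against markers of other organs, flower genes summed to at most 0.557 CPM in Cvi and 8.58 CPM in Sha, and seed genes to at most 0.149 CPM. The 3 root markers summed to 59.0 to 66.9 CPM in Cvi O3 and 62.1 to 99.8 CPM in Cvi CA, and to 9.77 to 56.8 CPM in Sha O3 and 22.5 to 52.4 CPM in Sha CA, nearly all of it from PYK10, while IRT1 and WOX5 were below 1 CPM in every library. The 4 leaf mesophyll markers fell in O3 in Cvi and in Sha, with summed levels of 10978 to 14121 CPM in Cvi O3 and 28022 to 32617 CPM in Cvi CA, and of 5343 to 11911 CPM in Sha O3 and 21539 to 28436 CPM in Sha CA. Both epidermal markers were lower too, at 112 to 117 CPM in Cvi O3 and 225 to 260 CPM in Cvi CA, and at 118 to 134 CPM in Sha O3 and 217 to 262 CPM in Sha CA, whereas neither phloem marker was called, and of the 3 guard cell markers KAT1 alone was called, lower in Cvi O3 (summed levels of 45.8 to 52.4 CPM in Cvi O3 and 62.2 to 75.6 CPM in Cvi CA). The part of these markers in the results was not tested, and in whole rosettes fewer cells of a type and less RNA per cell cannot be told apart.

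O3 lowered nearly the whole set within 2 h. In Cvi, 21 of 24 Calvin cycle genes and 10 of 13 photorespiration genes fell, against 23.2% of all tested genes called lower in that comparison, and 2 Calvin cycle genes rose, against 24.3% called higher and 47.5% called in either direction. In Sha, 21 Calvin cycle genes and all 13 photorespiration genes fell, against 16.6% called lower, and 1 Calvin cycle gene rose, against 17.9% called higher and 34.5% called in either direction. The median log2 fold change was -1.26 in Cvi and -1.65 in Sha over the Calvin cycle genes, and -1.37 in Cvi and -1.79 in Sha over the photorespiration genes, beside 0.00 over all tested genes in each accession. Every O3 library lay below every CA library for 33 of the 37 genes in Cvi, a pattern that 31.0% of tested genes showed, and for 34 genes in Sha, a pattern that 21.2% showed. Of the Calvin cycle genes 21 fell in both accessions, and of the photorespiration genes 10 did. The counts depended on the size of change asked for. Under a likelihood-ratio test of any change with a fitted log2 change of at least 1.2, 14 Calvin cycle and 7 photorespiration genes fell in Cvi, against 11.0% of all tested genes, and 18 and 10 fell in Sha, against 7.63%. Testing whether the change exceeded 1.2 on the log2 scale left 7 and 3 lower in Cvi, against 5.43% of all tested genes, and 10 and 7 in Sha, against 3.08%.

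**Figure D1:**
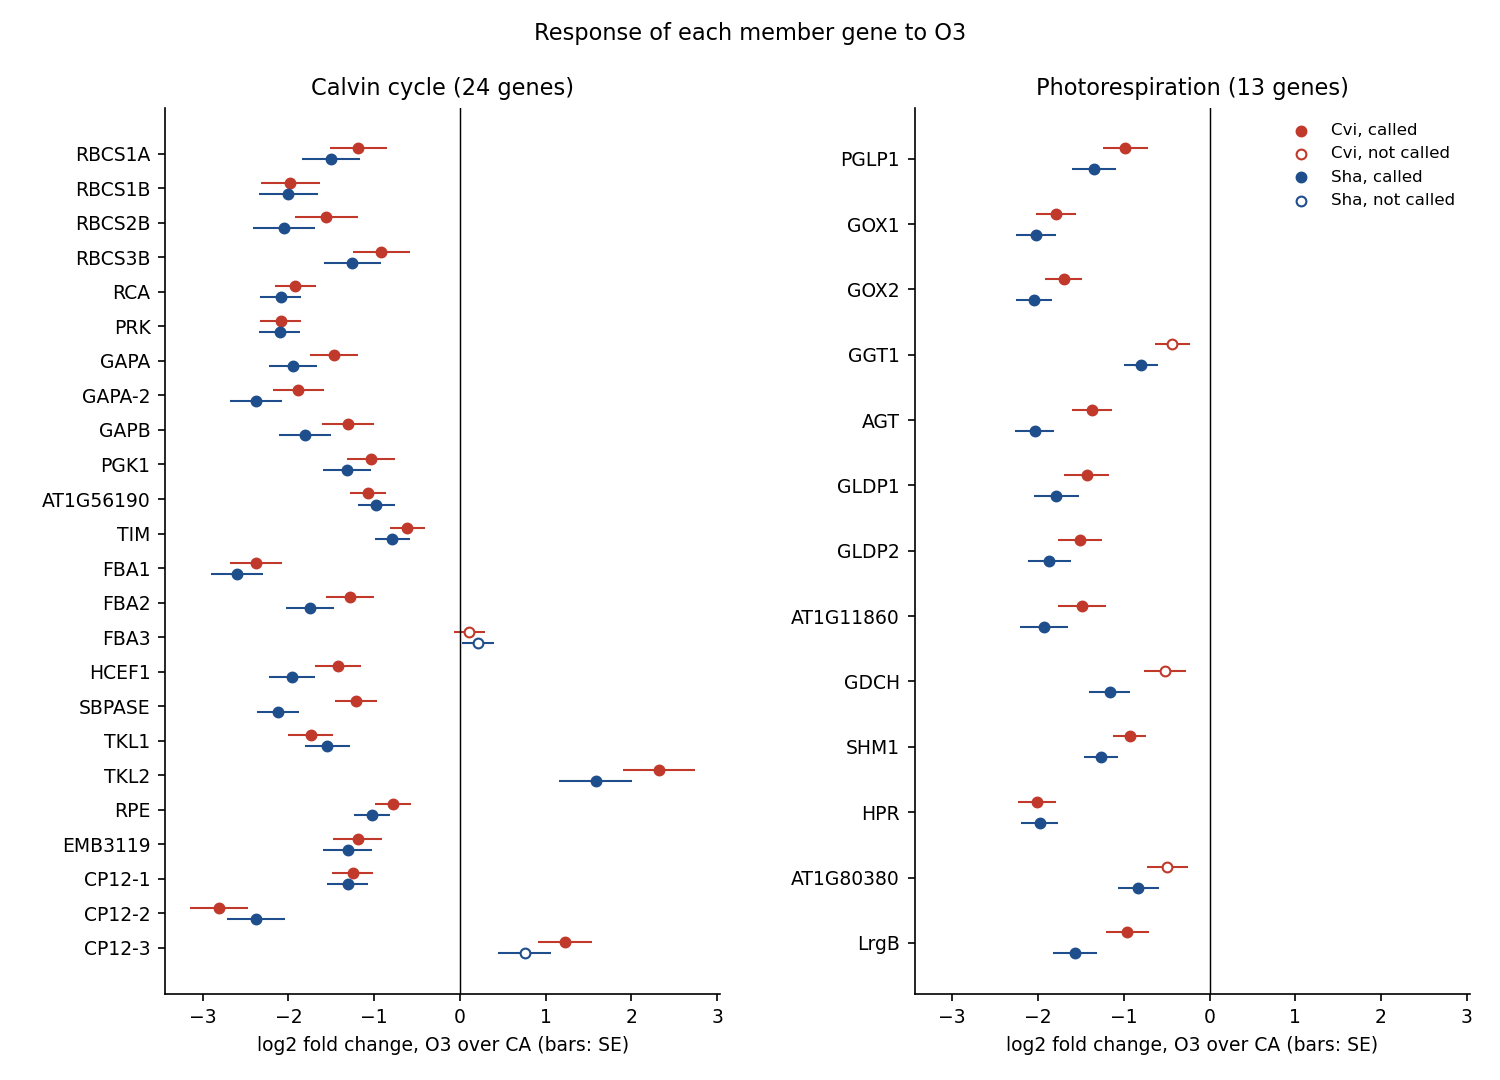
Log2 fold change of O3 over CA for each of the 24 Calvin cycle genes (left) and 13 photorespiration genes (right), in Cvi (red) and Sha (blue). Points are fitted values, bars are SE, and open points did not pass the test. Most points lie left of 0, and TKL2, CP12-3 and FBA3 lie right of it in both accessions, at 2.32, 1.23 and 0.11 in Cvi and at 1.58, 0.75 and 0.21 in Sha.

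The Rubisco small subunits include the 3 most abundant members per kilobase, and all 4 fell in both accessions. RBCS1A (AT1G67090) stands alone on chromosome 1, whereas RBCS1B (AT5G38430), RBCS2B (AT5G38420) and RBCS3B (AT5G38410) are neighbours on chromosome 5. Because the 4 genes share part of their sequence, the first 90 coding bases of each are given 5′ to 3′ from the start codon. They come from the RefSeq TAIR10.1 genome (minus strand in each case), with capitals at the 19 positions where the 4 genes are not all alike.
RBCS1A, chr1:25049160-25049249: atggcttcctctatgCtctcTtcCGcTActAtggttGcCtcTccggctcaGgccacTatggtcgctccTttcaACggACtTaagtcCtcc
RBCS1B, chr5:15385066-15385155: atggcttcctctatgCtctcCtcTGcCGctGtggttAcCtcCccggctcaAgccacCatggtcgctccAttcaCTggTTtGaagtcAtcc
RBCS2B, chr5:15381889-15381978: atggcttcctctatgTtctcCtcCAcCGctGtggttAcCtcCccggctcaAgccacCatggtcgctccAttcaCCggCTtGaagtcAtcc
RBCS3B, chr5:15378217-15378306: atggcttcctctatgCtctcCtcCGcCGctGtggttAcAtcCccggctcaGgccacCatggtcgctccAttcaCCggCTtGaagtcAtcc
RBCS1B and RBCS2B differ at 5 of these positions, and over their whole coding sequences they are 97.3% identical. Of the 31-base stretches in the transcripts of RBCS2B, 37.1% also occur in another small subunit gene, as do 20.7% in RBCS3B, 18.9% in RBCS1B and 4.5% in RBCS1A, so values of single B genes rest partly on how shared reads were divided.

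RBCS1A had 8838, 7366 and 6716 CPM in the Cvi O3 libraries, against 17463, 17239.9 and 17343 CPM in Cvi CA, and 5753, 1964 and 4352 CPM in Sha O3, against 14634, 7705 and 11818 CPM in Sha CA. The O3 libraries lay below the CA libraries in both accessions, and the second Sha library was the lowest of its group in both treatments. The log2 fold change was -1.18, SE 0.335, FDR 0.00342 in Cvi and -1.50, SE 0.335, FDR 0.000221 in Sha. RBCS3B had 7336, 5948 and 5859 CPM in Cvi O3, against 12766, 11972 and 11358 CPM in Cvi CA, and 5192, 1582 and 3743 CPM in Sha O3, against 10241, 6492 and 8322 CPM in Sha CA. Its groups did not overlap, and it changed least of the 4, with a log2 fold change of -0.91, SE 0.336, FDR 0.0287 in Cvi and -1.25, SE 0.336, FDR 0.00271 in Sha. The Cvi call of RBCS3B was lost when 1 of 4 libraries was left out, with FDRs of 0.0607 to 0.0978 without the second or the third Cvi O3 library or the first or the second Cvi CA library, and so was it with DESeq2 (FDR 0.168) and the quasi-likelihood test (FDR 0.0626).

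RBCS2B had 3771, 3099.8 and 3027 CPM in Cvi O3, against 10219.9, 10013 and 8870.0 CPM in Cvi CA, and 2611, 701 and 1306 CPM in Sha O3, against 7754, 4730.3 and 6651 CPM in Sha CA. The O3 libraries were again the lower ones without overlap, and those of Sha were spread more widely than those of Cvi. The log2 fold change of RBCS2B was -1.56, SE 0.364, FDR 0.000296 in Cvi and -2.05, SE 0.364, FDR 2.06e-06 in Sha. RBCS1B had 121, 90.9 and 79.4 CPM in Cvi O3, against 460.1, 314 and 376 CPM in Cvi CA, and 439, 137 and 258 CPM in Sha O3, against 1213, 876 and 1257 CPM in Sha CA. Per kilobase it was the least abundant small subunit in every group, its O3 libraries lay below its CA libraries in each accession, and it was lower in Cvi than in Sha in each treatment. Its log2 fold change was -1.98, SE 0.344, FDR 7.88e-07 in Cvi and -2.00, SE 0.344, FDR 8.83e-07 in Sha.

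The make-up of the small subunit pool shifted with O3 in both accessions. RBCS2B gave 18.8% to 19.3% of the small subunit CPM in Cvi O3 and 23.4% to 25.3% in Cvi CA, and 13.5% to 18.7% in Sha O3 and 22.9% to 23.9% in Sha CA. RBCS3B gave 36.0% to 37.4% in Cvi O3 and 29.9% to 31.2% in Cvi CA, and 36.1% to 38.8% in Sha O3 and 29.7% to 32.8% in Sha CA. For neither gene did the O3 and CA ranges overlap, and the shares were not tested. RBCS1A, the largest contributor, kept a mean share of 43.8% ± 0.918 in Cvi O3 and 44.0% ± 1.55 in Cvi CA, and of 43.7% ± 2.21 in Sha O3 and 41.4% ± 2.25 in Sha CA (SD, n = 3 each).

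RCA (AT2G39730), Rubisco activase, which removes inhibitory sugar phosphates from the Rubisco active site, fell further by the fitted values than RBCS1A, RBCS2B and RBCS3B in Cvi and than all 4 small subunits in Sha. It had 3833, 3543 and 3380.3 CPM in Cvi O3, against 13453, 14836 and 12346 CPM in Cvi CA, and 3834, 2077 and 2110.3 CPM in Sha O3, against 12541, 11451 and 10181 CPM in Sha CA. The groups were far apart in both accessions, and the 2 lowest Sha O3 libraries were nearly alike. The log2 fold change was -1.92, SE 0.242, FDR 9.77e-12 in Cvi, a 3.78-fold lower level, and -2.09, SE 0.242, FDR 1.79e-13 in Sha, a 4.26-fold lower level.

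**Figure D2:**
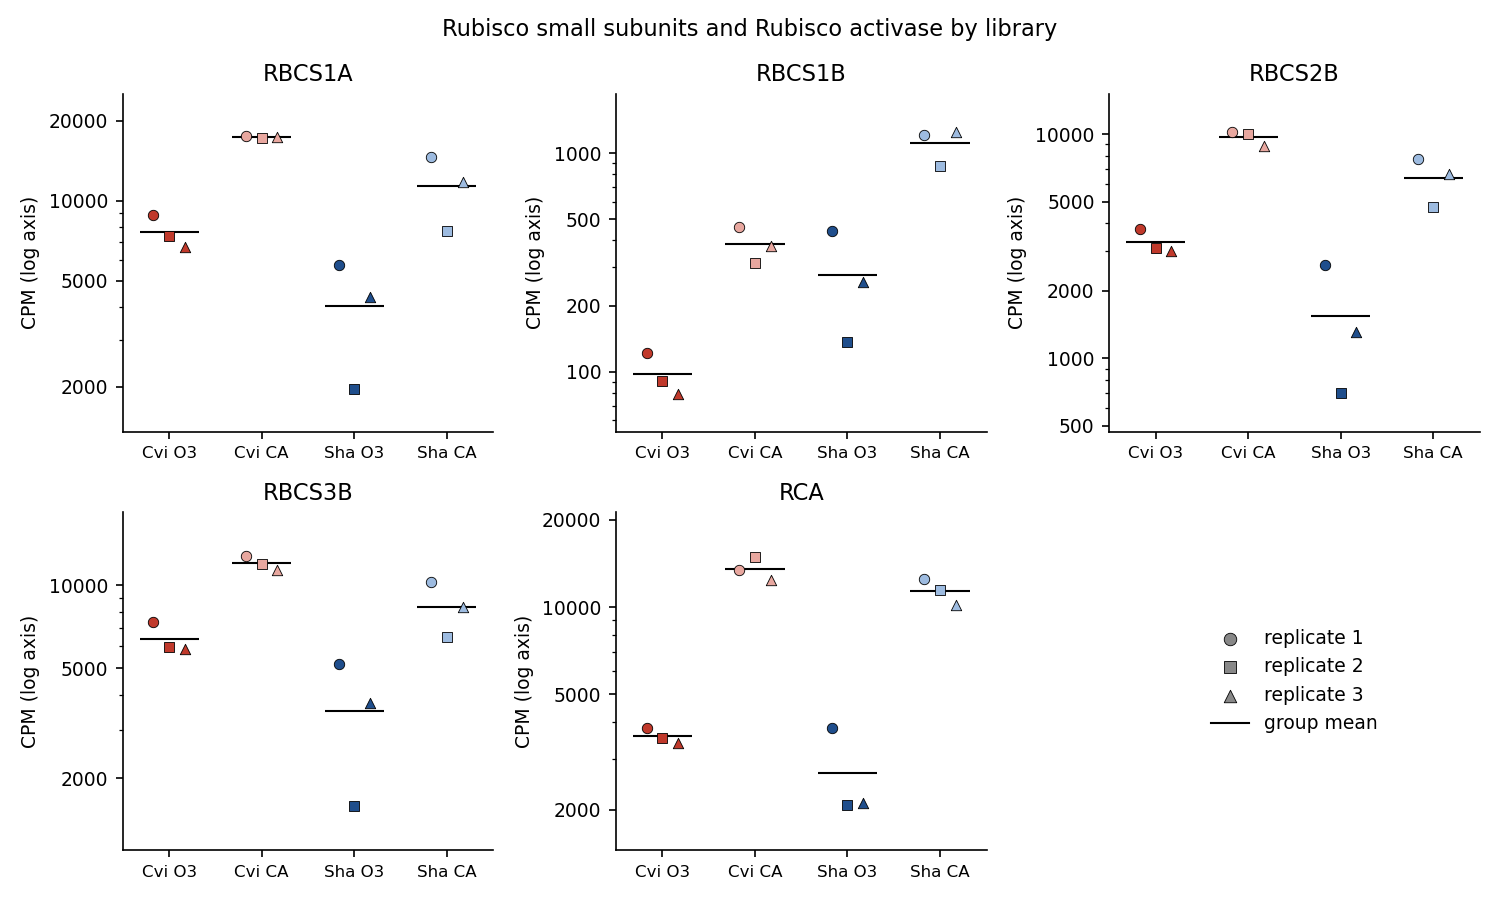
CPM of the 4 Rubisco small subunit genes and of RCA in each of the 12 libraries, on log axes. Circles, squares and triangles are the first, the second and the third replicate, and the line is the group mean. In every panel the O3 libraries of an accession lie below its CA libraries, and the second Sha O3 library is the lowest point of its group.

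Of 12 genes that assemble and repair Rubisco (chaperonins, assembly chaperones and phosphatases or methyltransferases acting on Rubisco or its ligands), 11 had a negative value and 7 fell in each accession and none rose, with a median log2 fold change of -0.86 in Cvi and -1.13 in Sha. Among all tested genes 23.2% fell in Cvi and 16.6% in Sha. Leaving out 1 library at a time gave 4 to 9 lower in Cvi and 7 to 11 in Sha. AT3G04550, for which no role is given here, had the most negative value in Cvi (-1.74, SE 0.515, FDR 0.00414), and RbcX1, an assembly chaperone, the most negative in Sha (-2.16, SE 0.398, FDR 3.58e-06). Of the 31-base stretches, 18.0% in AT3G04550 and 15.9% in RbcX1 also occur in genes that overlap them on the opposite strand. The use of strand in counting was not stated. RbcX2, a second assembly chaperone, had values of 0.36, SE 0.161, FDR 0.191 in Cvi and 0.21, SE 0.162, FDR 0.557 in Sha, neither past the test. All 9 thioredoxin regulators, which switch Calvin cycle enzymes on in the light, fell in both accessions, against the same shares of all tested genes, with medians of -0.95 in Cvi and -1.19 in Sha. Among these, TRXF1, thioredoxin f1, fell most (-1.53, SE 0.214, FDR 1.89e-09 in Cvi, -1.65, SE 0.215, FDR 1.43e-10 in Sha) and AT2G04700, the catalytic chain of ferredoxin-thioredoxin reductase, fell least (-0.63, SE 0.16, FDR 0.00664 in Cvi, -0.75, SE 0.161, FDR 0.00108 in Sha).

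The genes of the reduction phase fell together. PGK1 and AT1G56190, phosphoglycerate kinases, had log2 fold changes of -1.04 and -1.07 in Cvi, and of -1.32 and -0.97 in Sha. GAPA, GAPA-2 and GAPB encode the subunits of the NADP-dependent glyceraldehyde-3-phosphate dehydrogenase, and their values were -1.47, -1.88 and -1.31 in Cvi and -1.95, -2.38 and -1.81 in Sha. GAPA-2 fell more than GAPA by the fitted values, and it gave 40.5% ± 0.153 of the A subunit CPM in Cvi O3 and 47.6% ± 0.964 in Cvi CA, and 37.1% ± 1.11 in Sha O3 and 44.5% ± 1.70 in Sha CA (SD, n = 3 each). TIM, the plastid triose-phosphate isomerase, fell least of the Calvin cycle genes called, with -0.61, SE 0.203, FDR 0.0283 in Cvi and -0.79, SE 0.204, FDR 0.00438 in Sha. The Cvi call of TIM was lost with 5 of the 6 Cvi libraries left out singly, at FDRs of 0.0538 to 0.0918, and with DESeq2 (FDR 0.233).

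Among the aldolases, which join triose phosphates to sugar bisphosphates, FBA1 and FBA2 fell and FBA3 did not. FBA1 (AT2G21330) had 608, 501 and 490.0 CPM in Cvi O3, against 2902, 2880.2 and 2526 CPM in Cvi CA, and 505, 199 and 219.7 CPM in Sha O3, against 2059, 1881 and 1669.8 CPM in Sha CA. All O3 libraries lay far below the CA libraries, and the first Sha O3 library was the highest of its group. The log2 fold change of FBA1 was -2.38, SE 0.302, FDR 1.05e-11 in Cvi, 5.20-fold lower, and -2.60, SE 0.302, FDR 2.22e-13 in Sha, 6.07-fold lower, the most negative value of any member in Sha. FBA2, the more abundant gene per kilobase, had -1.28 in Cvi and -1.74 in Sha. FBA3 (AT2G01140, also PDE345) stayed between 83.1 and 127 CPM in all 12 libraries, with overlapping groups and values of 0.11, SE 0.184, FDR 0.759 in Cvi and 0.21, SE 0.185, FDR 0.565 in Sha. Its 95% intervals ran from -0.25 to 0.47 in Cvi and from -0.15 to 0.57 in Sha. FBA3 thereby gave 4.01% ± 0.254 of the plastid aldolase CPM in Cvi O3 and 1.28% ± 0.135 in Cvi CA, and 7.31% ± 2.10 in Sha O3 and 1.57% ± 0.0918 in Sha CA (SD, n = 3 each).

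The enzymes that rebuild the CO2 acceptor fell as well, apart from 1 transketolase. PRK (AT1G32060), phosphoribulokinase, which makes the acceptor, fell by nearly the same amount in both accessions (-2.09, SE 0.243, FDR 1.18e-13 in Cvi, -2.10, SE 0.243, FDR 1.64e-13 in Sha). HCEF1, the plastid fructose-1,6-bisphosphatase, had -1.42 in Cvi and -1.96 in Sha. RPE, ribulose-phosphate epimerase, had -0.78 in Cvi and -1.02 in Sha, and EMB3119, ribose-5-phosphate isomerase, had -1.19 in Cvi and -1.31 in Sha. The counts of EMB3119 carry a limit, since 21.3% of its 31-base stretches also occur in AT3G01505, a gene that overlaps it on the opposite strand, and the use of strand in counting was not stated. In the annotation a gene on the opposite strand also overlaps HCEF1 (AT3G54060, with 5.92% of the 31-base stretches of HCEF1 shared), RCA, PRK, PGK1, GOX1 and GLDP1, and a gene on the same strand overlaps GAPA, TIM and FBA3. SBPASE (AT3G55800), sedoheptulose-1,7-bisphosphatase, an irreversible step of regeneration, had 1021, 1015 and 1016 CPM in Cvi O3, against 2241, 2549 and 2278 CPM in Cvi CA, and 462, 218 and 287 CPM in Sha O3, against 1556, 1254 and 1387 CPM in Sha CA. The 3 Cvi O3 libraries were nearly identical and lay above every Sha O3 library. SBPASE fell by 1.21 on the log2 scale in Cvi (SE 0.243, FDR 3.6e-05) and by 2.12 in Sha (SE 0.244, FDR 1.25e-13).

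The transketolases moved in opposite directions. TKL1 (AT3G60750), which carries nearly all transketolase counts in clean air, had 829, 838 and 768 CPM in Cvi O3, against 2666, 2796 and 2654 CPM in Cvi CA, and 813, 353 and 588 CPM in Sha O3, against 2041, 1424 and 1657 CPM in Sha CA. Its O3 libraries lay below its CA libraries in each accession, and it fell by 1.74 on the log2 scale in Cvi (SE 0.262, FDR 1.27e-08) and by 1.55 in Sha (SE 0.262, FDR 7.79e-07). TKL2 (AT2G45290), the minor gene, had 54.7, 52.4 and 64.7 CPM in Cvi O3, against 11.2, 12.1 and 11.0 CPM in Cvi CA, and 26.0, 7.54 and 46.2 CPM in Sha O3, against 7.80, 8.50 and 10.3 CPM in Sha CA. In Cvi the groups were far apart, whereas in Sha the second O3 library, at 7.54 CPM, was below all 3 CA libraries and the other O3 libraries were above them. TKL2 rose in Cvi (2.32, SE 0.422, FDR 2.13e-06) and in Sha (1.58, SE 0.427, FDR 0.00226), and the Sha value was 0.97 without the third Sha O3 library, with an FDR of 0.0363. TKL2 gave 6.61% ± 1.01 of the transketolase CPM in Cvi O3 and 0.421% ± 0.00978 in Cvi CA, and 4.16% ± 2.75 in Sha O3 and 0.531% ± 0.131 in Sha CA (SD, n = 3 each).

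CP12 proteins bind GAPDH and phosphoribulokinase in the dark and hold them inactive, and their 3 genes also split. CP12-1 fell by 1.25 on the log2 scale in Cvi and by 1.31 in Sha. CP12-2 (AT3G62410) had 60.6, 41.7 and 48.2 CPM in Cvi O3, against 319, 431 and 304 CPM in Cvi CA, and 89.5, 38.9 and 31.7 CPM in Sha O3, against 263, 335 and 232 CPM in Sha CA. The O3 and CA libraries were clearly separate in both accessions. CP12-2 had a log2 fold change of -2.81, SE 0.334, FDR 5.19e-13 in Cvi, 7.01-fold lower and the most negative value of any member there, and -2.38, SE 0.335, FDR 1.67e-09 in Sha, 5.19-fold lower. CP12-3 (AT1G76560) had 6.60, 7.68 and 8.88 CPM in Cvi O3, against 2.85, 4.10 and 2.96 CPM in Cvi CA, and 9.66, 5.37 and 12.4 CPM in Sha O3, against 5.17, 3.92 and 7.08 CPM in Sha CA. Together with TKL2 it was 1 of the 2 least abundant members per kilobase in every group. Its Cvi O3 libraries lay above its Cvi CA libraries, as those of TKL2 did, a pattern that 28.4% of tested genes showed, and its Sha groups overlapped. CP12-3 rose in Cvi (1.23, SE 0.313, FDR 0.000972) and its value in Sha was 0.75, SE 0.314, FDR 0.0737. Libraries of the same number deviated together in Sha but not in Cvi. The fit with the replicate number as a block over all 12 libraries gave 0.75 in Sha with an FDR of 0.0464. The fit without both second Sha libraries, an alternative added after seeing the data, gave 0.90 in Sha with an FDR of 0.00538. The share of CP12 CPM from CP12-2 was 14.8% ± 1.09 in Cvi O3 and 33.9% ± 4.36 in Cvi CA, and 16.6% ± 5.03 in Sha O3 and 31.1% ± 5.81 in Sha CA (SD, n = 3 each).

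**Figure D3:**
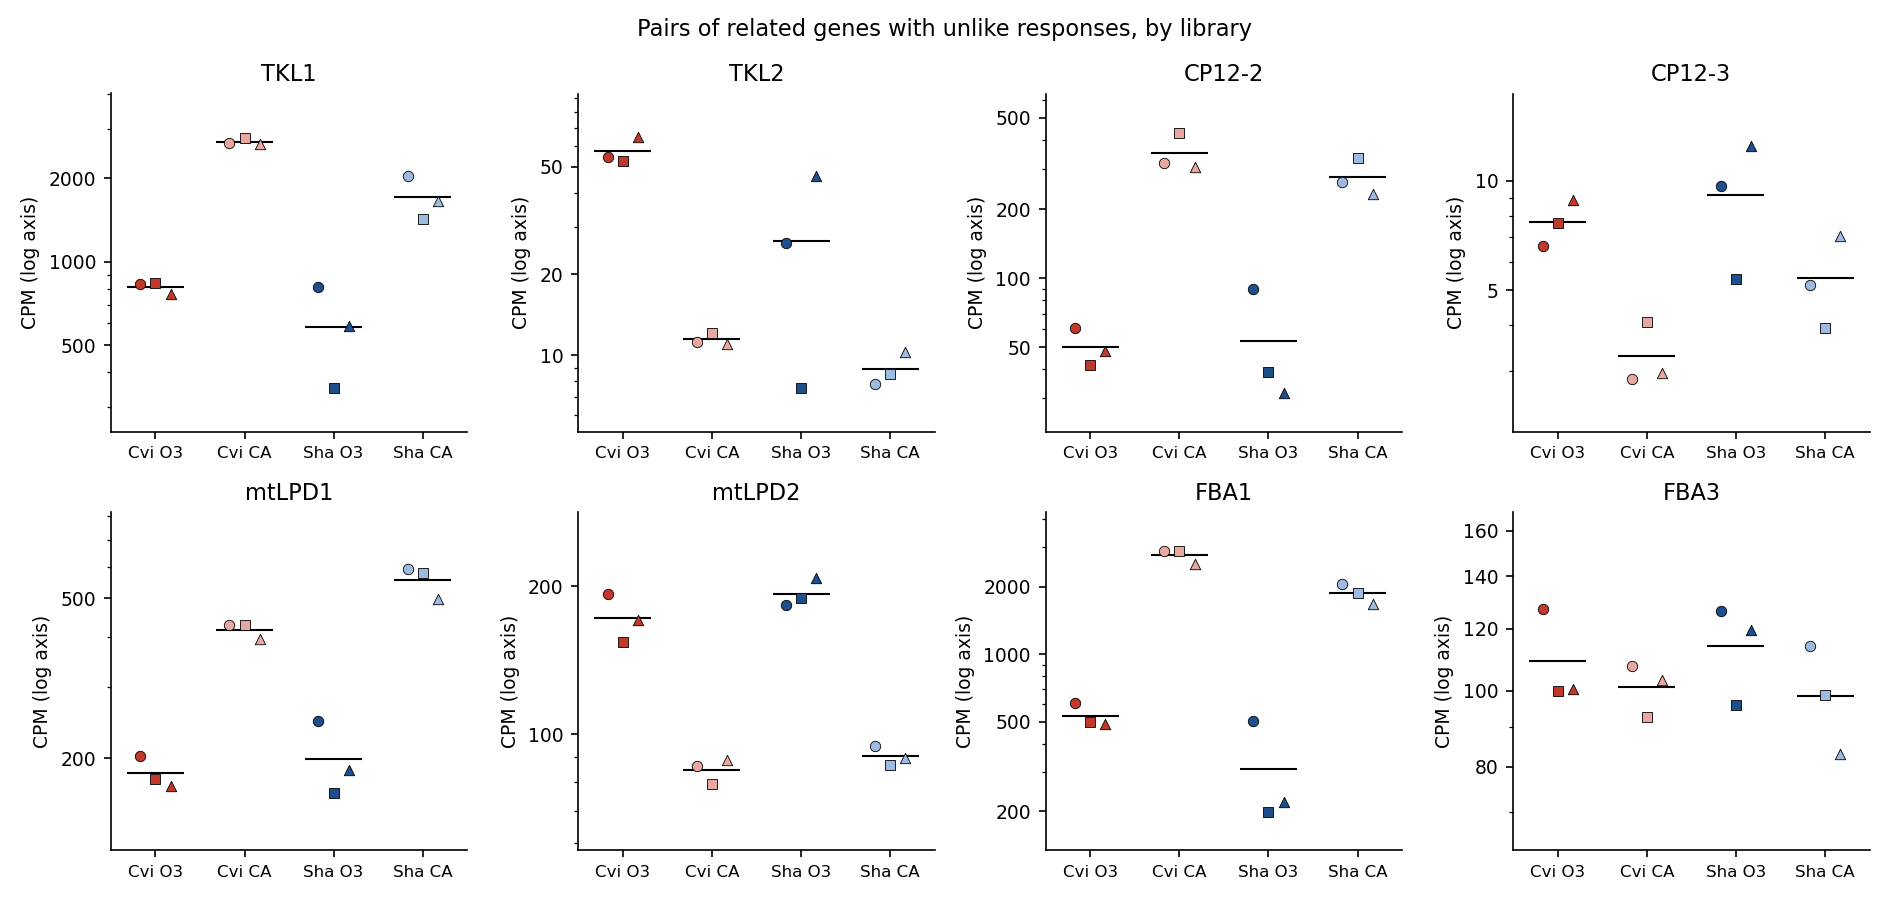
CPM by library, on log axes, of TKL1 and TKL2, CP12-2 and CP12-3, mtLPD1 and mtLPD2 (the mitochondrial lipoamide dehydrogenases) and FBA1 and FBA3. Circles, squares and triangles are the first, the second and the third replicate, and the line is the group mean. The first gene of each pair is lower in O3 in both accessions. TKL2 and mtLPD2 are higher in O3 in both accessions by the test, CP12-3 in Cvi, and FBA3 did not pass the test in either.

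The promoters of RBCS2B, whose share of the small subunit pool was lower in O3, and of CP12-2, CP12-3 and TKL2, which moved in opposite directions, are shown for comparison. Each line gives the 250 bases before the annotated gene start on the gene's own strand, from the RefSeq TAIR10.1 genome, 5′ to 3′, with capitals marking the I-box (GATAAG) and the G-box (CACGTG) on either strand, elements known from light-regulated promoters.
RBCS2B, chr5:15382072-15382321, minus strand: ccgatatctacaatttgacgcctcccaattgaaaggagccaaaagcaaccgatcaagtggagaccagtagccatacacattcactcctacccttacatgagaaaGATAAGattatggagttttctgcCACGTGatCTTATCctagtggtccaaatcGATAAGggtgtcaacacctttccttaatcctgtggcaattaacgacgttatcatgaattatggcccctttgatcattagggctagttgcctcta
CP12-2, chr3:23090694-23090943, plus strand: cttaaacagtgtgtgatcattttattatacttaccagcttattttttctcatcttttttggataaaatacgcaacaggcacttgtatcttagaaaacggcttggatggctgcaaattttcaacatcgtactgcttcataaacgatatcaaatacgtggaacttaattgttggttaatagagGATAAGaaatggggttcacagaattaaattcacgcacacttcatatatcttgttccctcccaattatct
CP12-3, chr1:28727956-28728205, plus strand: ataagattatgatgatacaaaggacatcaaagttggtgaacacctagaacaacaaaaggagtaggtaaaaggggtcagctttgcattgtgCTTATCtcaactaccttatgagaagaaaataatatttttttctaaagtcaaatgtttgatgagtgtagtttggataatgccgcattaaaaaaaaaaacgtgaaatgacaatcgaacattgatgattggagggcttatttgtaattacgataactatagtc
TKL2, chr2:18672247-18672496, plus strand: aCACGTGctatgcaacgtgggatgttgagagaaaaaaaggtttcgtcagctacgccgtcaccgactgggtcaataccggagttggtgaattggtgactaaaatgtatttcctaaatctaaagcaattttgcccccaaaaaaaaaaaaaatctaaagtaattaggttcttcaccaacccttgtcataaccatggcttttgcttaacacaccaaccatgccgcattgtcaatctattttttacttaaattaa
The I-box occurred in the promoters of 5 Calvin cycle genes (RBCS2B with 3 copies, HCEF1 with 2, and RCA, CP12-2 and CP12-3), or 20.8%, and in that of GLDP2 among the photorespiration genes, or 7.69%, beside 12.3% of 27443 promoters of the same length. The G-box occurred in RBCS2B, PRK, HCEF1 and TKL2, or 16.7%, and in GGT1 and GLDP1, or 15.4%, beside 6.49% of all promoters. The W-box core (TTGAC, left in lower case), known from defence promoters, occurred in 37.5% of the Calvin cycle promoters and 53.8% of the photorespiration promoters, beside 44.9% of all, and in PRK it shares 1 base with the G-box. The evening element (AAAATATCT) occurred in none of the 37 and in 2.36% of all. Bases between the annotated gene start and the start codon were not searched, so a motif there would be missed. In RBCS1A the annotated start is at 25049667 and the start codon at 25049249. In RBCS2B they lie closer together, at 15382071 and 15381978. A motif absent here is thus absent only from the bases searched. CP12-2, which fell, and CP12-3, which rose in Cvi, both hold 1 I-box, and RBCS2B, which fell, and TKL2, which rose, both hold 1 G-box.

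In photorespiration the fitted values were negative from the first step to the last. All 13 genes passed the test in Sha, and 3 of them did not in Cvi. PGLP1, phosphoglycolate phosphatase, which makes glycolate in the chloroplast, had log2 fold changes of -0.98 in Cvi and -1.35 in Sha. Of its 31-base stretches 92.8% also occur in a near-identical copy on the same chromosome, AT5G36790, which had no count in any library, so transcripts of these loci cannot be told apart. LrgB (AT1G32080), the chloroplast envelope carrier of glycolate and glycerate, had -0.96 in Cvi and -1.57 in Sha. GOX1 and GOX2, neighbouring genes for the peroxisomal glycolate oxidases that release hydrogen peroxide, fell in both accessions, with -1.79 and -1.70 in Cvi and -2.02 and -2.05 in Sha. GOX2 (AT3G14415) had 335, 349 and 338 CPM in Cvi O3, against 1070.0, 1210.1 and 1048 CPM in Cvi CA, and 212, 124 and 131 CPM in Sha O3, against 672, 645 and 611 CPM in Sha CA. Each of the 4 groups lay apart from the others, and the Sha value (SE 0.212, FDR 2.44e-16) was the most negative of the photorespiration genes there.

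The peroxisomal aminotransferases, which make glycine from glyoxylate, differed in how far they fell. AGT, the serine:glyoxylate enzyme, had -1.37, SE 0.231, FDR 6.67e-07 in Cvi and -2.04, SE 0.231, FDR 6.19e-14 in Sha. GGT1 (AT1G23310), the glutamate:glyoxylate enzyme, had 1868, 1616 and 1748 CPM in Cvi O3, against 2292, 2515 and 2249 CPM in Cvi CA, and 1696, 1077 and 1437 CPM in Sha O3, against 2204, 2764 and 2345 CPM in Sha CA. Its O3 libraries lay below its CA libraries in both accessions, and its fitted change was the smallest of the photorespiration genes in each. The log2 fold change of GGT1 was -0.43, SE 0.202, FDR 0.144 in Cvi, not past the test, and -0.80, SE 0.202, FDR 0.00351 in Sha. Without both second Sha libraries the Sha value was -0.46 with an FDR of 0.0981.

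In mitochondria, the glycine decarboxylase complex and serine hydroxymethyltransferase turn glycine into serine. GLDP1 and GLDP2, the P proteins, fell by similar amounts, -1.43 and -1.51 in Cvi and -1.79 and -1.87 in Sha, and AT1G11860, the T protein, had -1.48 in Cvi and -1.93 in Sha. GDCH (AT2G35370), the H protein, had 662, 370.4 and 387 CPM in Cvi O3, against 707, 706 and 621 CPM in Cvi CA, and 238, 175 and 211 CPM in Sha O3, against 518, 495 and 387 CPM in Sha CA. The first Cvi O3 library lay within the Cvi CA range and the other O3 libraries were below it. GDCH had -0.52, SE 0.241, FDR 0.111 in Cvi and -1.17, SE 0.241, FDR 9.52e-05 in Sha, and without the first Cvi O3 library the Cvi value was -0.84 with an FDR of 0.00307. SHM1, serine hydroxymethyltransferase, the most abundant photorespiration gene per kilobase in Cvi, had -0.93 in Cvi and -1.26 in Sha.

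The return path to the Calvin cycle fell unevenly. HPR (AT1G68010), the peroxisomal hydroxypyruvate reductase, had 247, 271 and 245 CPM in Cvi O3, against 1011, 1195 and 869 CPM in Cvi CA, and 386, 262 and 239 CPM in Sha O3, against 1158, 1311 and 1033 CPM in Sha CA. The groups of each accession were far apart and the accessions overlapped within each treatment. HPR fell by 2.01 on the log2 scale in Cvi (SE 0.217, FDR 1.89e-15), the most negative value of the photorespiration genes there, and by 1.98 in Sha (SE 0.217, FDR 1.06e-14). AT1G80380, glycerate kinase, which returns glycerate to the cycle, had -0.49, SE 0.236, FDR 0.128 in Cvi, not past the test, and -0.83, SE 0.237, FDR 0.00751 in Sha. Without the second Sha O3 library, which enters the shared estimate of spread, the Cvi value of AT1G80380 was -0.54 and passed, with an FDR of 0.0285.

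Of 22 further photorespiration genes with counts (out of 23 listed, among them ammonia refixation, dicarboxylate carriers, catalases and second copies), 14 fell and 1 rose in Cvi, and 12 fell and 3 rose in Sha, with medians of -0.88 in Cvi and -0.72 in Sha. Among all tested genes 23.2% fell and 24.3% rose in Cvi, and 16.6% fell and 17.9% rose in Sha. CAT2, the leaf peroxisomal catalase that removes the hydrogen peroxide of glycolate oxidation, fell most (-2.55, SE 0.32, FDR 7.27e-12 in Cvi, -2.11, SE 0.32, FDR 2.43e-08 in Sha). Lipoamide dehydrogenase, which serves glycine decarboxylase and other mitochondrial complexes, split like the transketolases. mtLPD1 fell (-1.19, SE 0.19, FDR 4.05e-07 in Cvi, -1.48, SE 0.19, FDR 1.49e-10 in Sha) and mtLPD2 rose (1.03, SE 0.155, FDR 2.74e-07 in Cvi, 1.10, SE 0.155, FDR 5.16e-08 in Sha), so that mtLPD2 gave 48.5% ± 1.77 of their CPM in Cvi O3 and 16.9% ± 1.35 in Cvi CA, and 49.6% ± 6.19 in Sha O3 and 14.0% ± 1.13 in Sha CA (SD, n = 3 each). GOX3, a further glycolate oxidase gene, rose in Sha only by the test (1.23, SE 0.452, FDR 0.032) and had 0.02 in Cvi, and the difference between accessions did not pass (-1.21, SE 0.678, FDR 0.353). The Sha call of GOX3 was lost without the second Sha O3 library (0.51, FDR 0.289) or any 1 of the 3 Sha CA libraries (FDR from 0.0548).

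Cytosolic and glycolytic enzymes of the same reactions showed no common direction. Of 16 such genes 3 rose and 5 fell in Cvi, 5 rose and 6 fell in Sha, and the median was 0.00 in each. Among all tested genes 24.3% rose and 23.2% fell in Cvi, and 17.9% rose and 16.6% fell in Sha. RSW10 (AT1G71100), a cytoplasmic ribose-5-phosphate isomerase, rose most (3.88, SE 0.222, FDR 2.99e-50 in Cvi, 2.49, SE 0.223, FDR 9.53e-22 in Sha) while the plastid isomerase EMB3119 fell. FBA5, a cytosolic aldolase, fell most (-3.98, SE 0.436, FDR 2.48e-14 in Cvi, -3.97, SE 0.438, FDR 6.49e-14 in Sha), which was further than FBA1 by the fitted values.

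Set side by side, most genes of both pathways fell. Their log2 fold changes ran from -2.81 to 2.32 for Calvin cycle genes and from -2.01 to -0.43 for photorespiration genes in Cvi. In Sha they ran from -2.60 to 1.58 and from -2.05 to -0.80, so the Calvin cycle genes covered the wider range. The interquartile range of log2 fold changes ran from -1.77 to -1.01 for Calvin cycle genes and from -1.51 to -0.93 for photorespiration genes in Cvi, and from -2.06 to -1.20 and from -1.98 to -1.26 in Sha, so the pathways overlapped in both. Members rose only among the Calvin cycle genes. Calvin cycle genes took 2.95% ± 0.261 of all counts in Cvi O3 and 8.01% ± 0.209 in Cvi CA, and 2.08% ± 0.823 in Sha O3 and 6.40% ± 1.01 in Sha CA, whereas photorespiration genes took 0.828% ± 0.0439 in Cvi O3 and 1.92% ± 0.138 in Cvi CA, and 0.695% ± 0.151 in Sha O3 and 1.86% ± 0.244 in Sha CA (SD, n = 3 each). For every 100 Calvin cycle counts there were 27.1, 27.9 and 29.4 photorespiration counts in Cvi O3, against 23.5, 25.5 and 22.9 in Cvi CA, and 29.3, 46.2 and 31.1 in Sha O3, against 23.9, 39.3 and 26.4 in Sha CA. The ratio was thus higher in O3 without overlap in Cvi and higher in O3 within each replicate number in Sha, where the second library stood apart in both treatments. No test was made over the members of a pathway, because genes are not replicates.

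The ratio of counts weights abundant genes, and per kilobase of transcript these were few. Lengths were those of the longest annotated transcript, such as 935 bases for RBCS2B and 1210 for RBCS3B. By mean CPM alone RBCS3B, with 12032, was above RBCS2B, with 9701, in Cvi CA. In Cvi O3 RBCS1A led with 6025 ± 857 CPM per kb, followed by RBCS3B with 5274 ± 684, RBCS2B with 3528 ± 438 and RCA with 1804 ± 115, and in Cvi CA RBCS1A had 13682 ± 88.0, RBCS2B 10375 ± 777 and RBCS3B 9944 ± 584 CPM per kb (SD, n = 3 each). RBCS3B and RBCS2B in Cvi CA did not differ beyond their spread, and in Sha the spread of the 3 leading small subunits overlapped in each treatment. The leading photorespiration gene was SHM1 in Cvi O3, with 954 ± 93.9 CPM per kb, in Cvi CA, with 1817 ± 154, and in Sha CA, with 1356 ± 129. In Sha O3 it was GGT1, with 636 ± 141 CPM per kb, which did not differ beyond the spread from SHM1, with 565 ± 109. SHM1 and GGT1 are among the photorespiration genes with the smallest fitted falls. The small subunits together gave 40.4% to 42.8% of the counts of all 37 genes in Cvi O3 and 36.1% to 38.5% in Cvi CA, and 28.0% to 40.4% in Sha O3 and 27.4% to 37.4% in Sha CA.

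**Figure D4:**
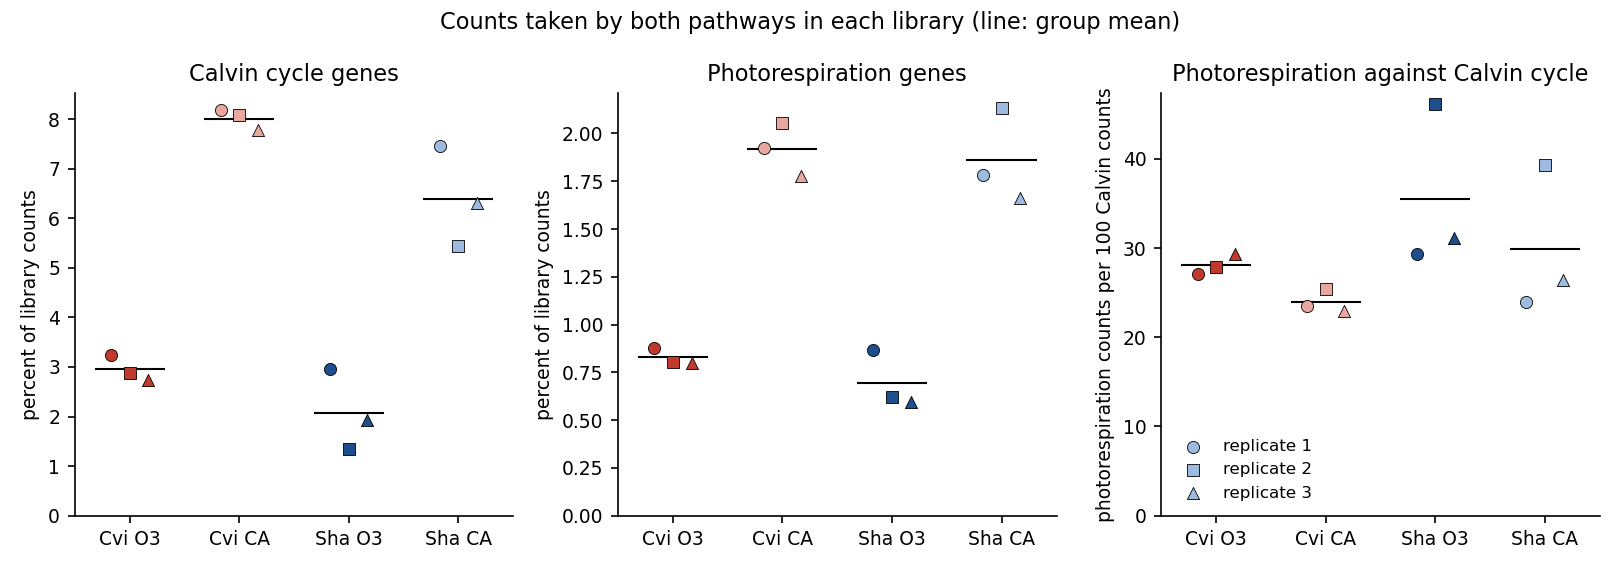
Percent of library counts from Calvin cycle genes (left) and photorespiration genes (middle), and photorespiration counts per 100 Calvin cycle counts (right), for each library. Circles, squares and triangles are the first, the second and the third replicate, and the line is the group mean. Both shares are lower in O3 than in CA without overlap in each accession, and the second Sha libraries have the highest ratios, 46.2 in O3 and 39.3 in CA.

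The response itself did not differ between accessions past the test for any member. By edgeR 0 of 24 Calvin cycle and 0 of 13 photorespiration genes were called for the difference (Cvi response minus Sha response), against 8.93% of all tested genes (6.33% more positive and 2.6% more negative in Cvi), and DESeq2 and edgeR's quasi-likelihood test called 0 as well. SBPASE was the 1 member with an unadjusted p under 0.05. The response was less negative or more positive in Cvi for 20 Calvin cycle genes and 12 photorespiration genes, with median differences of 0.26 and 0.36 on the log2 scale, beside 0.03 over all tested genes. Members vary together within a library, so these counts rest on few libraries. Against the accession's CA mean, the median Calvin cycle gene was at -1.08, -1.42 and -1.40 in the Cvi O3 libraries. In the Sha O3 libraries it was at -1.11, -2.46 and -1.70, so the first was close to Cvi and the second furthest from it. The largest difference was that of SBPASE, 0.91 (SE 0.344, FDR 0.121, 95% interval 0.23 to 1.58). Without the first Sha O3 library, which was the highest of its group for 22 Calvin cycle and 13 photorespiration genes, SBPASE passed with 1.23 (FDR 0.000441) and AGT with 0.94 (FDR 0.0386). Fitting separate replicate terms in Cvi and in Sha, an alternative chosen after seeing the data, gave SBPASE 0.97 with an FDR of 0.00698. For HPR and PRK the difference was near 0, with 95% intervals of -0.63 to 0.57 and -0.66 to 0.69.

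Levels were compared between accessions within each treatment. In O3, 11 Calvin cycle genes were higher in Cvi than in Sha (RBCS1A, RBCS2B, GAPA, GAPA-2, GAPB, AT1G56190, TIM, HCEF1, SBPASE, TKL2 and RPE), against 18.5% of all tested genes, and RBCS1B was lower, against 13.9%, with 32.4% called in either direction. Of the photorespiration genes GOX2, AGT, GDCH, SHM1 and LrgB were higher in Cvi and none was lower. In CA, AT1G56190 and SBPASE among the Calvin cycle genes and GOX2 among the photorespiration genes were higher in Cvi, against 8.84% of all tested genes, and RBCS1B was lower, against 9.28%, with 18.1% called in either direction. All Cvi libraries lay above all Sha libraries for 20 of the 37 genes in O3, which 25.9% of tested genes showed, and for 19 in CA, which 19.5% showed. All Cvi libraries lay below all Sha libraries for 1 gene, RBCS1B, in each treatment, which 20.2% of tested genes showed in O3 and 17.7% in CA. The O3 count rested on single libraries: it was 5 Calvin cycle genes without the first Cvi O3 library and 17 without the first Sha O3 library, compared with 12 in all, and scaling by total counts gave 5. Of the single calls in O3, those of TKL2 and TIM were each lost with 9 of the 12 libraries left out singly, that of RBCS1A with 8, that of RPE with 5 and that of RBCS2B with 3, and those of GAPA, AT1G56190, AGT and SHM1 with 1 each. In CA the call of SBPASE was lost with 8 (FDR 0.0512 to 0.124) and that of GOX2 with 2, the third Sha CA and the second Cvi CA library (FDR 0.0554 to 0.0666). Without the second Sha O3 library the O3 values of RBCS1A (0.59, FDR 0.111), RBCS2B (0.75, FDR 0.0584), TIM (0.41, FDR 0.162) and RPE (0.44, FDR 0.136) no longer passed, and that of TKL2 was 0.66 (FDR 0.0395). Without that library the CA values of GAPB (0.78, FDR 0.00772), TKL1 (0.67, FDR 0.0168) and CP12-3 (-0.73, FDR 0.0438) passed, and without the second Sha CA library that of RBCS3B in O3 did (0.86, FDR 0.0481). Reads of both accessions were assigned to transcripts of a Col-0 based catalogue, so a difference between accessions at a gene can also reflect how well its reads match.

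SBPASE had the most positive Calvin cycle value in O3, 1.66, SE 0.244, FDR 1.77e-08, and 0.75, SE 0.243, FDR 0.038 in CA. AT1G56190, a phosphoglycerate kinase gene, had the most positive value in CA. It had 252, 188 and 189 CPM in Cvi O3, against 150.1, 90.7 and 124 CPM in Sha O3, and 429.6, 461 and 429 CPM in Cvi CA, against 274, 224 and 218 CPM in Sha CA. The Cvi libraries were the higher ones in both treatments, with log2 fold changes of 0.79, SE 0.213, FDR 0.00708 in O3 and 0.88, SE 0.212, FDR 0.0033 in CA. RBCS1B had the most negative values, -1.52, SE 0.344, FDR 0.00039 in O3 and -1.54, SE 0.344, FDR 0.000498 in CA. With the 3 near-identical B genes summed into 1, the accession difference was 0.88 in O3 (FDR 0.0571) and 0.48 in CA (FDR 0.429), of opposite sign. RBCS1B gave only 0.554% of the small subunit CPM in Cvi O3, 0.971% in Cvi CA, 2.98% in Sha O3 and 4.16% in Sha CA. The sum therefore follows RBCS2B and RBCS3B and cannot check the value of RBCS1B.

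Among photorespiration genes GDCH had the most positive value in O3, 1.18, SE 0.241, FDR 9.96e-05, and 0.54, SE 0.241, FDR 0.185 in CA. GOX2 had the most positive value in CA, 0.79, SE 0.211, FDR 0.0112, and 1.13, SE 0.212, FDR 3.18e-05 in O3, and it gave 37.9% ± 0.732 of the CPM of both glycolate oxidases in Cvi O3 and 26.9% ± 2.41 in Sha O3, and 36.4% ± 0.511 in Cvi CA and 27.7% ± 3.86 in Sha CA (SD, n = 3 each). HPR had the most negative values, -0.22 in O3 and -0.19 in CA, neither past the test (FDR 0.554 in O3 and 0.716 in CA). Values were positive for 20 Calvin cycle and 12 photorespiration genes in O3, and for 21 and 10 in CA, with medians of 0.66 and 0.49 in O3 and of 0.45 and 0.17 in CA. CP12-3 was below 0 in both treatments, at -0.25 in O3 and -0.72 in CA, without passing the test, although without both second Sha libraries the CA value was -0.94 with an FDR of 0.00402. Libraries of the same number deviated together across the accessions in CA but not in O3. The fit with the replicate number as a block over all 12 libraries also called GAPB in CA, at 0.80 with an FDR of 0.0239. So did the fit without both second Sha libraries, at 0.67 with an FDR of 0.0284.

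**Figure D5:**
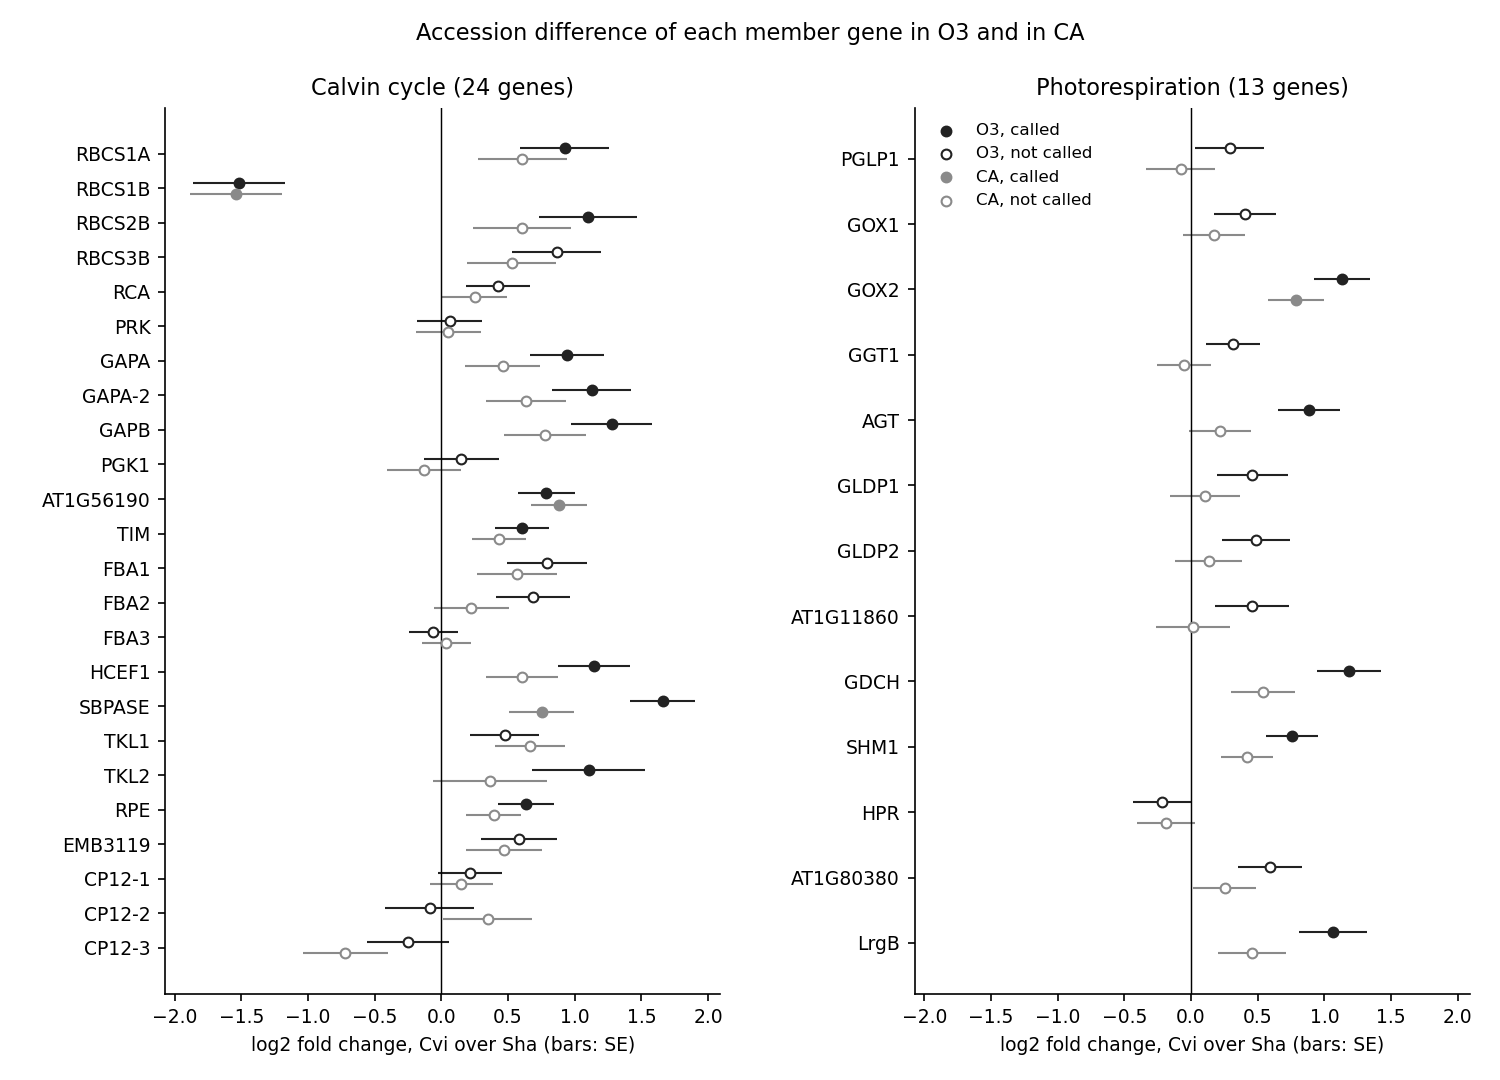
Log2 fold change of Cvi over Sha for each of the 24 Calvin cycle genes (left) and 13 photorespiration genes (right), in O3 (black) and in CA (grey). Points are fitted values, bars are SE, and open points did not pass the test. Most points lie right of 0, RBCS1B lies at -1.52 in O3 and -1.54 in CA, and SBPASE in O3 reaches 1.66.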

How the data were processed

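Whole rosettes had been sequenced by RNA-seq, and kallisto, with FastQC and Trimmomatic 0.33 before it, is named in the submitters' processing notes. The authors assigned reads to the AtRTD2 transcript catalogue and deposited estimated counts per gene, of which 69.4% were not whole numbers. The step from transcripts to genes and the use of strand are not given in the sources used here. The table held 18 columns, of which 6 matched no sample described for the series and were not used.

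Counts were rounded to whole numbers, 5663 loci with no count were removed and 28549 were tested with edgeR 4.0.16 in R 4.3.3 (limma 3.58.1 as its base), with TMM scaling, glmFit over all 12 libraries with 1 mean per group, glmTreat against a 1.2-fold change and Benjamini-Hochberg adjustment over all genes. Intervals are log2 estimates with 95% limits. The study named glmLRT and printed a threshold of 1.2 as a log2 fold change. The test used here therefore differs from the study's in its form and in its smaller threshold, because the 1.2 had been read as a fold when the design was fixed. Both forms of the log2 reading were run as alternatives: glmTreat against a log2 change of 1.2, and, added after seeing the data, glmLRT with a fitted log2 change of at least 1.2. The fit was tested on simulated data.

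Each library was a pool of 4 rosettes, so p-values measure the spread between pools. No replicates differed by less than sampling noise. A count of 3 corresponded to 0.0894 to 0.278 CPM, which covers counting error only. Replicate numbers were compared by the correlation of deviations from group means. Same-numbered libraries deviated together between O3 and CA in Sha (0.467, 0.626 and 0.455) and between the accessions in CA (0.328, 0.487 and 0.270), so there the numbers were read as pairs. They did not between O3 and CA in Cvi (0.135, -0.121 and -0.074) or between the accessions in O3 (0.038, -0.175 and 0.004). The main fit had no replicate term, so its SEs, FDRs and counts do not use this pairing. Fits with the replicate number as a block were run as alternatives only. Unless separate terms for each accession are named, the block was shared by all 12 libraries.

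Members and lists were chosen with earlier results of these data known. Every member is named at least once, and values of every library are given for the small subunits and RCA, for the extremes of each pathway in each contrast and for members called higher in O3. Values of every library for TKL1 were added where a comparison rested on them. In the further lists the extremes in each accession are named, leaving out genes whose mean was under 1 CPM. GOX3, mtLPD1 and mtLPD2 were named after their values were seen where the rule did not cover them. Gene coordinates and sequences came from RefSeq TAIR10.1. Alternatives were other tests (DESeq2 1.42.0, quasi-likelihood), scalings, filters, thresholds, replicate blocks, related copies summed and single libraries left out. The sums joined RBCS1B with RBCS2B and RBCS3B, PGLP1 with its near-identical copy, and GOX1 with GOX2.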

Additional observations from a re-analysis of the deposited data

Results flagged for a closer look

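Among the 37 genes and the named extremes of the further lists, 1 gene differed between the accessions by the test of the difference itself. Of all tested genes 8.93% did, and of the 16 cytosolic and glycolytic genes 6.25%. RSW10 (AT1G71100), a cytoplasmic ribose-5-phosphate isomerase outside the set of 37 genes, rose further in Cvi than in Sha, with a difference in log2 fold change of 1.40 (SE 0.315, FDR 0.00111 by edgeR). It had 180.1, 136 and 161 CPM in Cvi O3, against 10.7, 9.43 and 12.2 CPM in Cvi CA, and 94.0, 60.4 and 104 CPM in Sha O3, against 18.1, 13.0 and 15.0 CPM in Sha CA. Each O3 library lay above each CA library in both accessions, and the difference did not pass when the threshold was a log2 change of 1.2. Its cause was not tested. Groups of 3 libraries were too small for a test of single outlying libraries.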

How the results depend on the processing

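The counts of members that fell in O3 kept to within 1.5 times under every alternative run but 1: with glmTreat against a log2 change of 1.2, 10 Calvin cycle and 7 photorespiration genes fell in Sha, 7 and 3 in Cvi, and 0 of either pathway differed between accessions in CA or in O3. With glmLRT and a fitted log2 change of at least 1.2, 14 Calvin cycle and 7 photorespiration genes fell in Cvi and 18 and 10 in Sha, 1 Calvin cycle and 0 photorespiration genes differed between accessions in CA and 3 and 0 in O3, and 2 of the 9 thioredoxin regulators fell in Cvi and 4 in Sha. Under that setting 11.0% of all tested genes fell in Cvi and 7.63% in Sha. In O3, where 12 Calvin cycle and 5 photorespiration genes differed, DESeq2 gave 7 Calvin cycle genes and fitting only the groups compared 7. Scaling by total counts gave 5 Calvin cycle and 3 photorespiration genes. The median log2 fold change of Cvi over Sha in O3 among genes averaging at least 1 CPM was then -0.28. It was 0.03 in the main fit. In CA, where 3 and 1 differed, no minimum fold gave 5 Calvin cycle genes. Fitting only the groups compared gave 7 and leaving out both second Sha libraries 5. DESeq2 gave 0 photorespiration genes. Summing related copies gave 0 too, but it merged GOX2, the 1 gene called, into GOX1, so it cannot check GOX2. Separate replicate terms in each accession gave 1 Calvin cycle gene with a different response. Summing the 3 B genes gave an accession difference of 0.88 in O3 and 0.48 in CA, which follows RBCS2B and RBCS3B and does not test RBCS1B.

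Without 1 library at a time, 19 to 21 Calvin cycle genes fell in Cvi and 21 in Sha, and 10 to 11 photorespiration genes in Cvi and 13 in Sha. The response differed for 0 to 1 gene of each pathway. In CA 2 to 6 Calvin cycle and 0 to 1 photorespiration genes differed between accessions, and in O3 5 to 17 and 3 to 7. With the replicate number as a block, 11 photorespiration genes fell in Cvi, and 16 Calvin cycle and 6 photorespiration genes differed between accessions in O3, where libraries share only a number; in CA, where they pair, 4 Calvin cycle genes differed. The cause of these shifts was not tested. Over all alternatives the values of single members changed their call in 51 of 922 cases for O3 in Cvi and in 33 of 922 in Sha. Depth did not limit the members, whose lowest library level was 2.85 CPM.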

Other observations

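CAT3, a peroxisomal catalase gene, had the widest accession difference seen among the further photorespiration genes, a pattern noticed after the values were seen. It had 669.9, 682 and 858 CPM in Cvi O3, against 37.8, 32.0 and 41.0 CPM in Sha O3, and 1106, 2069 and 1387 CPM in Cvi CA, against 57.0, 63.8 and 60.9 CPM in Sha CA. No Sha library came near a Cvi library in either treatment. The log2 fold change of Cvi over Sha was 4.32, SE 0.235, FDR 1.9e-52 by edgeR in O3 and 4.65, SE 0.234, FDR 2.54e-59 in CA. The part of read assignment to a Col-0 based catalogue in this difference was not tested.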
